A study of Mus musculus with 6 samples.

Results

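Macrophage lineage factor genes were examined for histone marks of enhancers in bone marrow-derived macrophages (BMDMs). They were 7 listed genes, Spi1, Cebpa, Cebpb, Runx1, Irf8, Maf and Csf1r, of 21938 protein-coding genes in the GENCODE annotation of GRCm38, and were chosen by name. For each gene, every peak that overlapped the gene body or the 50 kb on either side was taken, and this stretch is called the window. The windows spanned 102 kb at Cebpb to 325 kb at Runx1. The windows held 13 of 4200 H3K27ac peaks and 206 of 73049 H3K4me1 peaks from cells given lipopolysaccharide (LPS), and 0 of 52 H3K27ac peaks and 199 of 64758 H3K4me1 peaks from cells given PBS.

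The cells were grown from C57BL/6 mouse bone marrow in medium conditioned by L929 cells, a fibroblast line that secretes the macrophage growth factor M-CSF, and were treated for 1 h with LPS, a component of bacterial outer membranes, or with PBS. Whether marrow of several mice was pooled was not given in the sources used here. Chromatin was profiled by CUT&RUN, in which an antibody directs a nuclease to a mark and the released DNA fragments are sequenced. The 6 samples were 1 library each of H3K4me1, H3K27ac and control IgG under either treatment, and the 4 lists of H3K4me1 and H3K27ac peaks were used here. With 1 library per mark and treatment there was no replicate error and no test, so that every value below describes these libraries. As the cells were profiled in bulk, fewer cells with a mark and less of the mark per cell cannot be told apart.

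A macrophage is set apart from other blood cells by a small group of transcription factors that open and hold its enhancers. PU.1, the product of Spi1, binds enhancers of myeloid cells together with C/EBP factors, the products of Cebpa and Cebpb, and with RUNX1, and IRF8 and c-MAF act on parts of this repertoire in monocytes and macrophages. Csf1r codes for the receptor of M-CSF, on which these cells depend, and is itself a target of PU.1. Enhancers carry monomethylation of histone H3 at lysine 4 (H3K4me1), active enhancers and promoters also acetylation at lysine 27 (H3K27ac).

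The macrophage label was checked at 9 macrophage marker genes with 10 kb on either side. All 9 held an LPS H3K4me1 peak and 8 held a PBS one, with a median of 11 and 9 peaks, and Cd68 was the marker at 0 under PBS. Csf1r is 1 of the 9. LPS H3K27ac was present at 1 of the 9, Cd14, and PBS H3K27ac at 0. Over 5 other sets of markers, for T cells, B cells, neutrophils, erythroid cells and fibroblasts, the median was 0 to 1 H3K4me1 peak in either list. Single markers among them held more, up to 9 LPS and 7 PBS peaks at Cd4, 6 and 7 at Ms4a1, and 5 and 6 at Elane. LPS H3K27ac was present at 1 of the T cell markers, Cd3d, with 1 peak. The depth at a peak was read as the number of fragments over its summit, solved from the deposited values. The median was 9 fragments in the LPS H3K27ac list, 11 in the PBS H3K27ac list and 17 in either H3K4me1 list.

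H3K27ac was found at 4 of the 7 genes under LPS and at 0 of the 7 under PBS. Spi1 held 8 LPS H3K27ac peaks, Cebpb 2, Runx1 2 and Cebpa 1, and Irf8, Maf and Csf1r held 0. In the annotation, 27.7% of protein-coding genes held at least 1 LPS H3K27ac peak in the same kind of window, and 0.588% held a PBS one. With 52 peaks in the whole PBS H3K27ac list, the nearest lay 7.04 Mb from Cebpb and 47.8 Mb from Runx1, the ends of the range over the 7 genes, and a list this short gives little information on any single gene. The nearest LPS H3K27ac peak lay 68181 bp from the gene body of Maf, 172475 bp from Irf8 and 326017 bp from Csf1r. The number of genes with LPS H3K27ac rested on the settings. It was 2, Spi1 and Cebpa, for peaks with a −log10 q of at least 5, and 2, Spi1 and Runx1, either with 10 kb in place of 50 kb or with peaks given to the nearest protein-coding start. With 100 kb it was 5. The share of all protein-coding genes was not computed under these settings, so the 27.7% is no background for these counts.

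**Figure D1:**
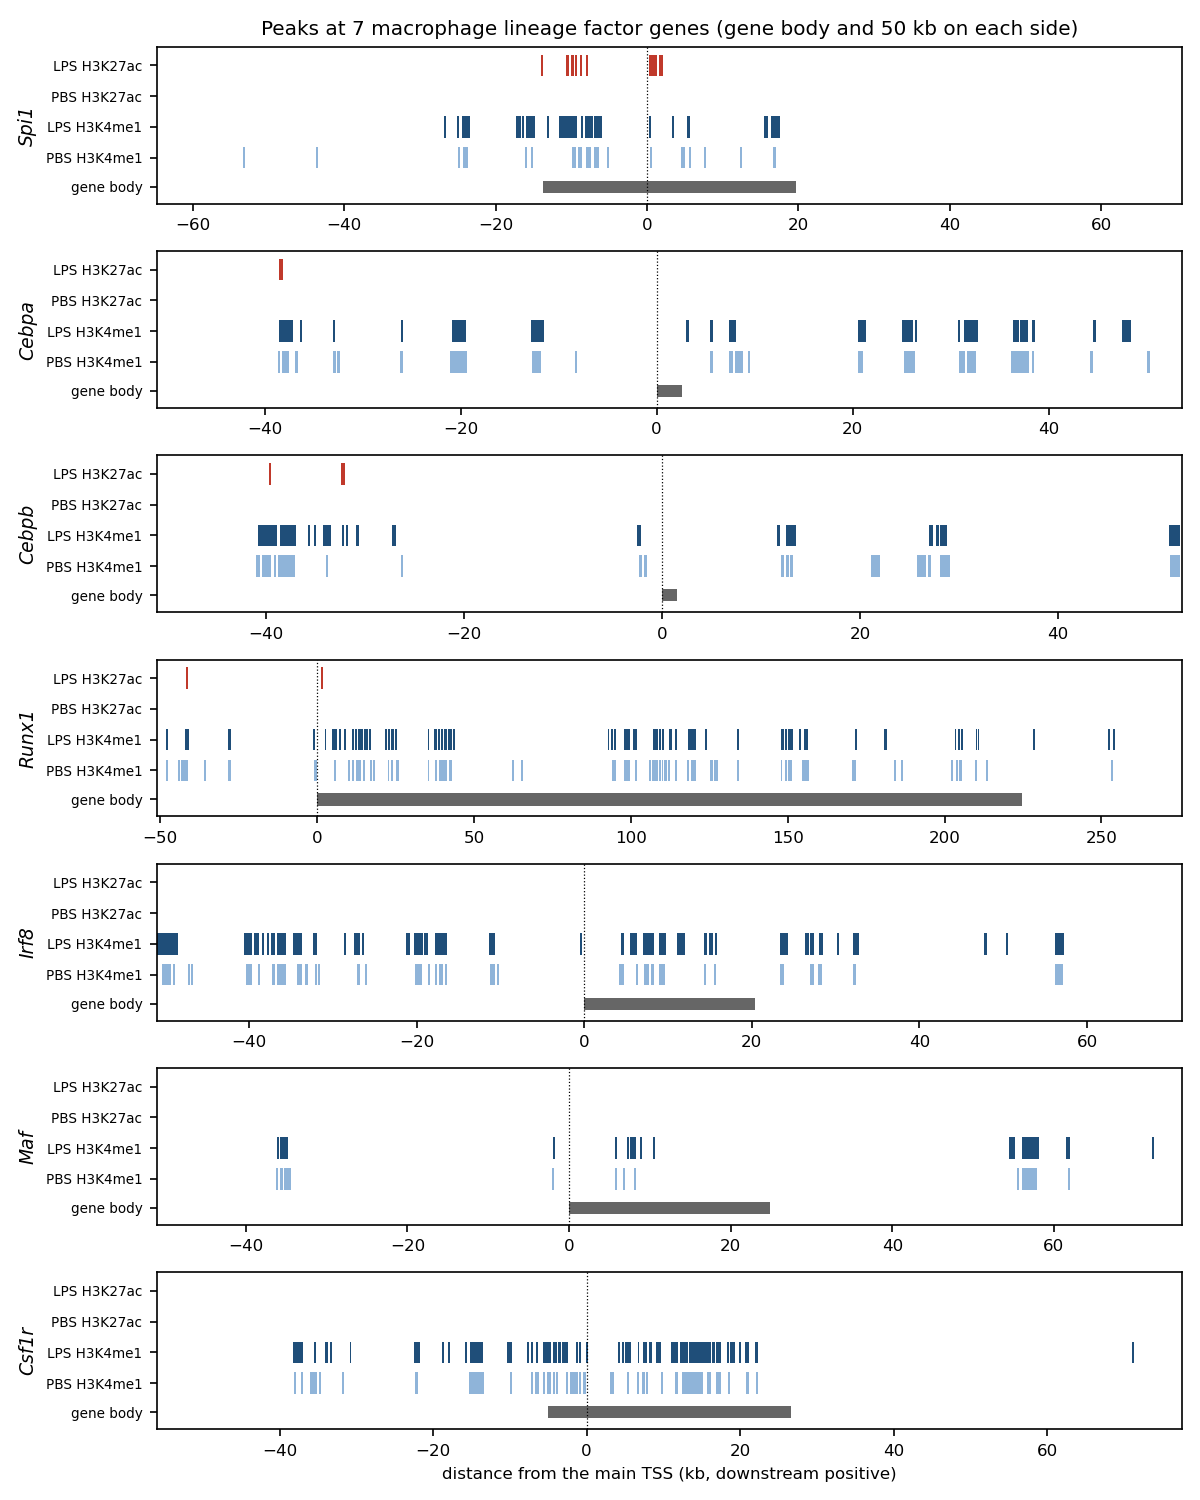
Peaks of the 4 lists at the 7 genes, drawn against the distance from the main transcription start site in kb, with the gene body in grey and the start site as a dotted line. Each bar is 1 peak, and the narrowest bars are drawn wider than to scale so that they can be seen. Red bars, for LPS H3K27ac, appear at Spi1, Cebpa, Cebpb and Runx1, and the row of PBS H3K27ac is empty at all 7 genes.

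The sequences under the strongest LPS H3K27ac peak of each acetylated gene are given as the regions in which factor motifs could be looked for. Each is 200 bases centred on the summit, on the plus strand of GRCm38, from chr2:91086230-91086429 at Spi1, chr7:35080904-35081103 at Cebpa, chr2:167649138-167649337 at Cebpb and chr16:92867576-92867775 at Runx1. Capitals mark exact matches to the motif letters searched.
Spi1: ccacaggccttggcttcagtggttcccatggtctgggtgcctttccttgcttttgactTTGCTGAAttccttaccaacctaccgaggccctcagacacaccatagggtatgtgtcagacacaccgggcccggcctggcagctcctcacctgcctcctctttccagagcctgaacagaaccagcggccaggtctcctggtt
Cebpa: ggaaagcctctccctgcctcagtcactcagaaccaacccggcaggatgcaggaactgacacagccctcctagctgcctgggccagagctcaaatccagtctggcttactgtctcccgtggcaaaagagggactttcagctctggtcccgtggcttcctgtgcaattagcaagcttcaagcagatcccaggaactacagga
Cebpb: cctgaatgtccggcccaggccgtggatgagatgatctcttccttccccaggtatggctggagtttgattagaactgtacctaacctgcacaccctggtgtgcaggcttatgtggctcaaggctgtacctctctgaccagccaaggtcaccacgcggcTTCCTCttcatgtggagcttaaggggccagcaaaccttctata
Runx1: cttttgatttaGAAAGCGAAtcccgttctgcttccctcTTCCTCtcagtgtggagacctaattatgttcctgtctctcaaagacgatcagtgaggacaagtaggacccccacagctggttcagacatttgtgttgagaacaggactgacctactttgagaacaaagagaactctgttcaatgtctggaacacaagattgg

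The motif letters were GAGGAA for PU.1, then TTGCNNAA for C/EBP, TGTGGT for RUNX, GAAANNGAA for IRF, TGCTGA for MAF, TGANTCA for AP-1 and GGANNTTCC for NF-kB, searched on both strands, with N for any base. In the Spi1 sequence the capitals run from base 59 to 66 and hold the C/EBP letters, and the MAF letters at bases 60 to 65 lie inside them. The Cebpb sequence held the PU.1 letters on the minus strand at bases 158 to 163. The Runx1 sequence held the IRF letters at bases 12 to 20 and the PU.1 letters on the minus strand at bases 39 to 44, and the Cebpa sequence held no match.

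Over the 13 LPS H3K27ac peaks, each read as 300 bases centred on the summit, the PU.1 letters were present in 6, or 46.2% (95% Wilson interval 23.2 to 70.9%), against 32.1% of all 4200 peaks. The MAF letters were also present in 6, against 22.4% of all peaks. The RUNX letters were found in 4 (30.8%, against 19.9%) and the C/EBP letters in 2 (15.4%, against 11.7%). AP-1, NF-kB and IRF letters were each in 1 of the 13, against 441, 195 and 460 of all 4200 peaks. The AP-1 and NF-kB letters were both in the Spi1 peak at -9452 bp. Short letters such as these are met often by base composition alone. The median GC content of the 13 windows was 55.3%, against 48% in the whole list, and the part of GC content in the motif shares was not tested.

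Spi1 codes for PU.1, the ETS factor without which macrophages do not form, and is known to be controlled by a promoter and by elements upstream of it. The gene lies on the plus strand of chromosome 2. Its main start, that of the coding transcript Spi1-201, was at 91096096, and an annotated upstream start, that of Spi1-204, at 91082390, 13706 bp upstream. The 8 LPS H3K27ac peaks lay in 3 places along this stretch. At least 8 such peaks, a limit set by the Spi1 count itself, were found at 31 protein-coding genes, or 0.141%. These genes are not separate places, since windows of neighbours overlap, and those of Slc39a13 and Mybpc3 hold the same peaks as Spi1. The count also rests on how the signal was cut into peaks. Merging peaks within 1000 bp left 8 of the 13 LPS H3K27ac peaks at the 7 genes, and the 0.141% was not computed for merged peaks.

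The upstream place was the Spi1-204 start, where a peak of 176 bp had its summit 144 bp before the start and 13 fragments. The middle place held 5 peaks with summits at -10402, -9766, -9452, -8856 and -7866 bp from the main start, all in an intron of Spi1. The strongest was at chr2:91086108-91086463, with 14 fragments at the summit, and ranked 251 of 4200 (−log10 q of 8.02). Its fold enrichment over the local background was 7.88. It was followed by the peaks at -7866 bp (−log10 q of 6.74, rank 416) and -10402 bp (6.61, rank 443). The 2 weakest of the 5, at -9452 and -8856 bp, rested on 9 fragments each and ranked 2602 and 2211.

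The remaining place was the main promoter. A peak at chr2:91096318-91097483, 1166 bp wide with 20 fragments, began just downstream of the start and had its summit in an intron at +955 bp. It was 1 of 5 peaks of at least 1 kb among the 4200, and the median width of that list was 150.5 bp. A peak of 492 bp followed at +2000 bp, with 15 fragments. Spi1 was the single member with LPS H3K27ac within 1 kb of its main start, a feature of 5.22% of protein-coding genes. This rests on the start chosen. A Runx1 peak had its summit 1310 bp from the main start of that gene, but 939 bp from the start of another coding transcript, Runx1-204.

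H3K4me1 was present at Spi1 under both treatments, with 16 LPS and 17 PBS peaks. The strongest PBS peak, at chr2:91086263-91086777 with a −log10 q of 19.2 and 38 fragments, ranked 905 of 64758 and overlapped the strongest LPS H3K27ac peak of the gene. The LPS H3K4me1 peak over the same place was 2371 bp wide against 515 bp, with 33 fragments at its summit, and ranked 19863 of 73049. The strongest LPS peak lay nearer the promoter, at chr2:91087953-91088906 (−log10 q of 15.8, 32 fragments), overlapped the H3K27ac peak at -7866 bp and had a PBS counterpart that ranked 1863. Near the main start each list held a peak, at +443 bp under LPS and at +520 bp under PBS, 17 fragments each.

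The covered length of H3K4me1 at Spi1 was 10.7 kb under LPS and 6.32 kb under PBS, a ratio of 1.70. The LPS peaks were wider rather than more numerous. At least 1 kb wide were 4 LPS and 0 PBS peaks, and the widest PBS peak had 709 bp. Of the LPS peaks, 10 of 16 were overlapped by a PBS peak (62.5%, 38.6 to 81.5%), and of the PBS peaks, 11 of 17 by an LPS peak. Of the 8 LPS H3K27ac peaks, 5 lay on a PBS H3K4me1 peak and 6 on an LPS one. The peaks at the Spi1-204 start and at +2000 bp lay on neither.

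**Figure D2:**
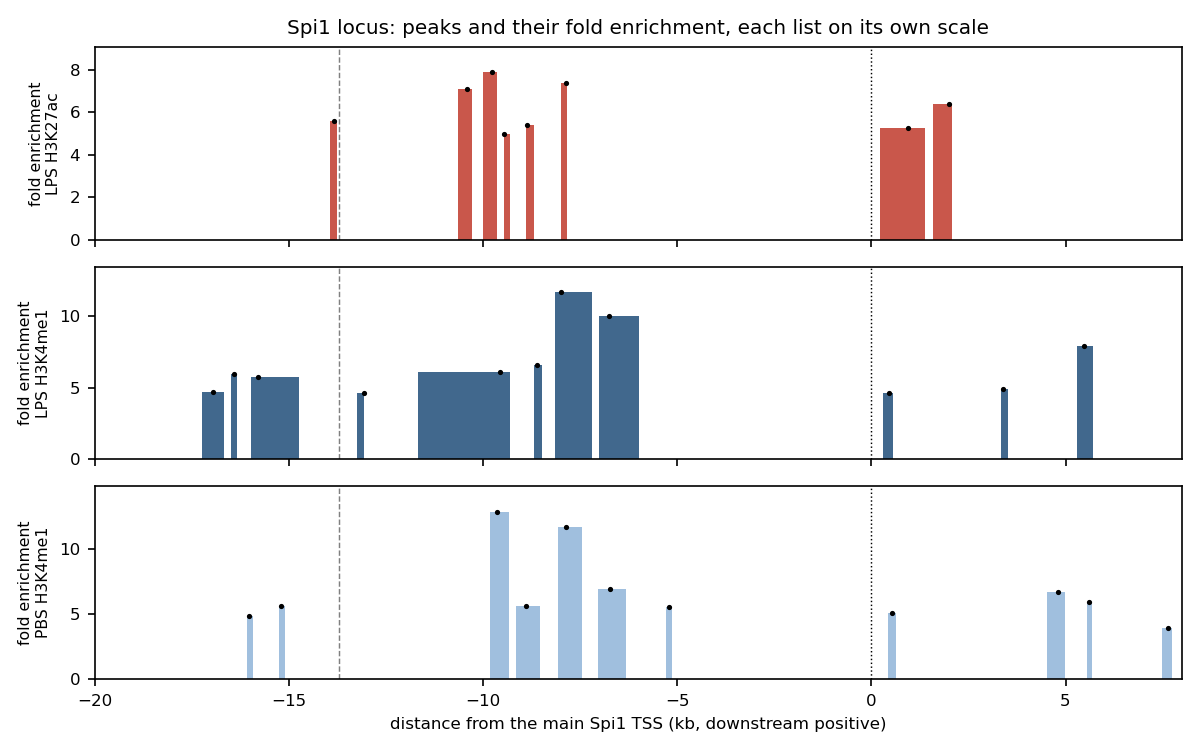
Peaks around the main start of Spi1 and upstream of it, against the distance from that start in kb, with the width of each bar as the width of the peak, its height as the fold enrichment at the summit and a dot at the summit. Each list has a scale of its own, since fold enrichment was not compared between lists. The dotted line is the main start and the dashed line the upstream start. LPS H3K27ac peaks fall at the upstream start, in the group of 5 around the highest PBS H3K4me1 bar, and just downstream of the main start.

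By peaks per 100 kb over the 4 lists, the genes most like Spi1 were Tnfaip3, an inhibitor of NF-kB signalling, and Lasp1, an actin-binding protein. Tnfaip3 held 6 LPS H3K27ac, 0 PBS H3K27ac, 15 LPS H3K4me1 and 15 PBS H3K4me1 peaks. Lasp1 held 7, 0, 19 and 19. The distances from Spi1, on log2 of peaks per 100 kb plus 1, were 0.21 and 0.29.

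Cebpa and Cebpb code for C/EBP factors, of which C/EBPα directs granulocyte and monocyte progenitors and C/EBPβ acts in mature and activated macrophages. Both genes have a single coding exon and short bodies, and in both the H3K27ac under LPS was far upstream. At Cebpa the peak was at chr7:35080734-35081151, 38299 bp upstream of the start, with 9 fragments, a fold enrichment of 6.66 and rank 915 of 4200. It was intergenic and nearer the start of Cebpg, another C/EBP gene, at 24431 bp. It was overlapped by H3K4me1 in both lists.

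At Cebpb the H3K27ac peaks were at chr2:167649190-167649313 and chr2:167656533-167656945, 39677 and 32001 bp upstream, in introns of the neighbouring gene Tmem189 and of Gm20431. They ranked 1128 and 3247 of 4200 and rested on 11 and 13 fragments. The first was overlapped by H3K4me1 in both lists and the second in the LPS list. For the H3K27ac of Cebpa and Cebpb, the nearest protein-coding start belonged to another gene, so that their assignment rests on the window.

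H3K4me1 at Cebpa numbered 19 LPS and 21 PBS peaks over 12.1 and 11.8 kb, a ratio of 1.03 in covered length. The strongest LPS peak was 31872 bp downstream of the start (chr7:35150709-35152096, 38 fragments, rank 1561 of 73049). The strongest PBS peak was 37163 bp downstream (chr7:35155488-35157335, 1848 bp wide, 32 fragments, rank 5368 of 64758), and each was overlapped in the other list. An enhancer downstream of Cebpa is known from myeloid progenitors. Of the LPS peaks 15 of 19 were overlapped by a PBS peak (78.9%, 56.7 to 91.5%), the highest share of the 7 genes, though its interval includes the share of every other member but Cebpb.

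H3K4me1 at Cebpb numbered 16 peaks in either list, over 9.12 kb under LPS and 8.21 kb under PBS. Of the LPS peaks 8 of 16 were overlapped by a PBS peak (50%, 28.0 to 72.0%). The strongest LPS peak lay 38341 bp upstream, beside the H3K27ac peaks, and the strongest PBS peak 51770 bp downstream, reaching past the end of the window. A PBS peak at chr2:167714701-167715523, 26214 bp downstream in an intron of A530013C23Rik, had no LPS counterpart, although it was 823 bp wide with 31 fragments and ranked 2368 of 64758. It was the strongest peak without a counterpart, by place in its own list, of those at the 7 genes in either list.

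Runx1 codes for the runt-domain factor that starts blood cell formation and acts with PU.1 in myeloid cells. The gene lies on the minus strand of chromosome 16, with its distal start at 92826149, taken as the main start, and the start of Runx1-202 at 92697328, 128821 bp downstream. An LPS H3K27ac peak of 123 bp lay 1310 bp downstream of the distal start, in an intron, with 9 fragments (rank 2602 of 4200) and no H3K4me1 in either list. Another, of 217 bp with 11 fragments (rank 1219), lay 41527 bp upstream in an intron of Gm49723 and was overlapped by H3K4me1 in both lists.

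Runx1 had the largest number of H3K4me1 peaks of the 7 genes, 69 under LPS and 70 under PBS, in the longest window. Per 100 kb this was 21.3 and 21.6 peaks, below Irf8 and Csf1r in both lists. The covered length was 30.8 and 29.3 kb, a ratio of 1.05. Of the LPS peaks, 41 of 69 had a counterpart (59.4%, 47.6 to 70.2%), near the 61.2% of the whole list. Of the PBS peaks, 42 of 70 had one (60%, 48.3 to 70.7%), where the whole list had 73.1%, and this was the lowest share of PBS peaks among the 7 genes. The strongest LPS peak was in an intron 150986 bp downstream of the distal start (rank 2971 of 73049) and the strongest PBS peak at 120321 bp (rank 1743 of 64758), 8500 bp upstream of the Runx1-202 start. Each was overlapped in the other list.

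Irf8 codes for an interferon regulatory factor that drives monocyte and dendritic cell fates. It had no H3K27ac peak, but among the densest H3K4me1 of all genes, with 35 LPS and 33 PBS peaks, or 29.1 and 27.4 per 100 kb. At least as dense were 0.305% of protein-coding genes in the LPS list and 0.301% in the PBS list. The covered length was 22.9 kb under LPS and 14.1 kb under PBS, a ratio of 1.62. Of the PBS peaks, 26 of 33 were overlapped by an LPS peak (78.8%, 62.2 to 89.3%), and 85.9% of the length covered under PBS was also covered under LPS, against 53.1% the other way.

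The strongest H3K4me1 peak of Irf8 was at the same place in both lists, 36309 bp upstream of the start under LPS (chr8:120699669-120700758, 40 fragments, rank 872 of 73049) and 36422 bp under PBS (41 fragments, rank 439 of 64758). It lay in an intron of Gm20388, a gene that spans the region, and the nearest protein-coding start was that of Cox4i1, 31827 bp from the LPS summit. The widest peak of the 7 genes, 4399 bp under LPS, began beyond the upstream edge of the Irf8 window and had its summit 52580 bp upstream. The widest PBS peak of the gene overlapped it and had 1077 bp. An LPS peak of 223 bp with 16 fragments lay 439 bp before the start of Irf8 and had no PBS counterpart, and the PBS peak nearest the start was at +4472 bp.

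Maf codes for c-MAF, a basic leucine zipper factor of resident macrophages. It had the fewest H3K4me1 peaks of the 7 genes, 12 under LPS and 10 under PBS, yet held their strongest peak. The peak was at chr8:115649613-115651759 under LPS, in intergenic DNA 57495 bp downstream of the start. It ranked 5 of 73049, with 64 fragments at its summit (−log10 q of 50.3) and 26.9-fold enrichment. Its PBS counterpart, at chr8:115649862-115651773, had 43 fragments and ranked 52 of 64758. Maf was the nearest protein-coding start to it. The next strongest LPS peaks of the gene ranked 21156, and the next PBS peak 14887. The covered length was 6.29 and 4.43 kb, a ratio of 1.42.

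Csf1r, on the plus strand of chromosome 18, had no H3K27ac peak and dense H3K4me1, with 39 LPS and 32 PBS peaks, or 29.6 and 24.3 per 100 kb. The share of protein-coding genes at least as dense was 0.26% and 0.666%. The covered length was 21.1 kb under LPS and 14.9 kb under PBS, a ratio of 1.41. Of the PBS peaks, 28 of 32 were overlapped by an LPS peak (87.5%, 71.9 to 95%), the highest share of PBS peaks among the 7 genes, and of the LPS peaks 24 of 39 (61.5%, 45.9 to 75.1%) by a PBS peak. The strongest peak was the same in both lists, upstream of the gene at -14985 bp under LPS (42 fragments, rank 917 of 73049) and -14756 bp under PBS (32 fragments, rank 1869 of 64758).

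H3K4me1 also lay at the start of Csf1r in both lists, with summits at -10 bp under LPS (26 fragments) and -53 bp under PBS (14 fragments). The LPS peak covered the start, at 61105572, and the PBS peak, at chr18:61105091-61105549, ended just before it. The widest peaks of the gene, 2849 bp under LPS and 2794 bp under PBS, were inside it at +15186 and +14315 bp and overlapped each other. The window also holds part of Pdgfrb, a receptor gene of mesenchymal cells, upstream of Csf1r. An LPS peak at -33255 bp, in an intron of Pdgfrb, was the strongest at Csf1r with no PBS counterpart, with 19 fragments and a rank of 26160.

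Across the 7 genes, an H3K4me1 peak within 1 kb of the main start was found under LPS at 4, Spi1, Runx1, Irf8 and Csf1r, and under PBS at 3, the same without Irf8. Over protein-coding genes the shares were 24.3% and 16%. Cebpa, Cebpb and Maf had none there in either list, and their nearest H3K4me1 summits lay 3321, 2442 and 1896 bp from the start under LPS. Most H3K4me1 summits in the windows were in introns, 71.8% under LPS and 72.9% under PBS, and 21.4% and 21.1% were intergenic. The summits in introns include those in neighbouring genes.

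**Figure D3:**
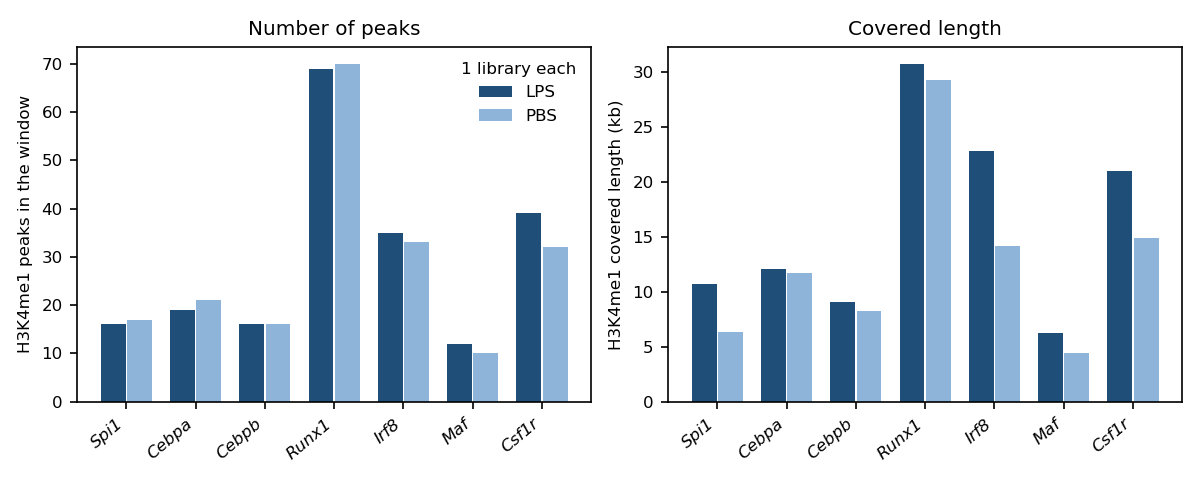
H3K4me1 peaks in the window of each gene (left) and the length they cover in kb (right), with LPS in dark and PBS in light blue and 1 library for each bar. Peak numbers run from 12 and 10 at Maf to 69 and 70 at Runx1, and are furthest apart at Csf1r, with 39 under LPS and 32 under PBS. The covered length is larger under LPS by over 1.5 times at Spi1 and Irf8.

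In all, H3K4me1 covered 112.9 kb of the windows under LPS and 89.1 kb under PBS. The ratio of 1.27 was near that of the whole lists, 1.25. The ratio in peak number was 1.04, against 1.13 in the whole lists, and turned below 1 with H3K4me1 lists of equal size (0.915) and with merged peaks (0.951). Per gene the covered length was larger under LPS at all 7, by 1.03 to 1.70 times. This direction did not hold at Cebpa, Cebpb and Runx1 under other settings, at least 1 of which put the ratio below 1 for each. A ratio of at least 1.5 toward LPS was found at 2 of the 7, Spi1 and Irf8, and at 38.8% of 15118 protein-coding genes with a peak in both lists. A ratio of at least 1.5 toward PBS was found at 0 of the 7 and at 5.4% of these genes. The median ratio over the genes was 1.34, and 28.2% of them had a ratio at least as high as Spi1. The 2 of 7 was thus near the background.

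**Figure D4:**
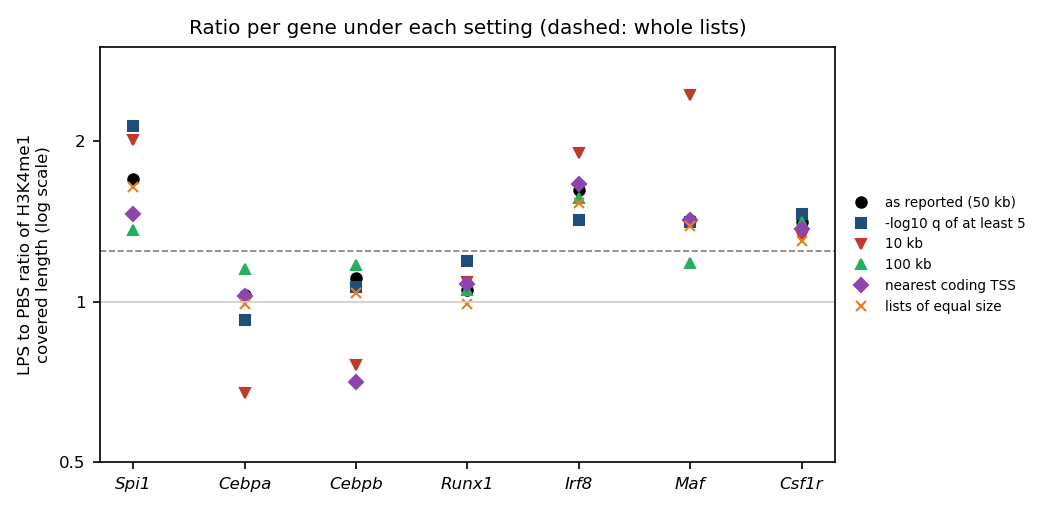
Ratio of the H3K4me1 covered length under LPS to that under PBS for each gene, on a log scale, as reported and under 5 other settings of window, peak strength, assignment and list size. The dashed line is the ratio of the whole lists, 1.25. The points of Spi1, Irf8 and Csf1r lie above that line, those of Maf lie near or above it, and those of Cebpa, Cebpb and Runx1 lie near 1 with some below.

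Peaks shared between treatments were about as frequent at these genes as in the whole lists. Of the 206 LPS H3K4me1 peaks, 127 were overlapped by a PBS peak (61.7%, 54.9 to 68.0%), against 61.2% of the whole list. Of the 199 PBS peaks, 141 were overlapped by an LPS peak (70.9%, 64.2 to 76.7%), against 73.1%. Of the 13 LPS H3K27ac peaks, 8 lay on a PBS H3K4me1 peak (61.5%, 35.5 to 82.3%), where the whole list had 29.9%, and 10 on an LPS one (76.9%, 49.7 to 91.8%), where the whole list had 33.6%. Both intervals lie above the share of the whole list, but 8 of the 13 peaks lie close together at Spi1 and are not independent of each other. The whole list is also no matched background. The median width of the 13 peaks was 217 bp, against 150.5 bp in the whole list. The median number of H3K4me1 peaks per 100 kb was higher at the 7 genes than over all protein-coding genes. The part of width and peak number in these shares was not tested. The intervals reach these whole-list shares under some other settings. With a −log10 q of at least 5 the shares were 50% on PBS H3K4me1 (18.8 to 81.2%) and 66.7% on LPS H3K4me1 (30 to 90.3%), and with 10 kb the share on PBS H3K4me1 was 55.6% (26.7 to 81.1%). The whole-list shares were not computed again for the stricter q. The intervals stay above them with 10 kb on LPS H3K4me1, 66.7% (35.4 to 87.9%). They also do so with 100 kb, 55.6% on PBS (33.7 to 75.4%) and 72.2% on LPS H3K4me1 (49.1 to 87.5%). With peaks given to the nearest protein-coding start, the shares were 66.7% (35.4 to 87.9%) and 77.8% (45.3 to 93.7%), also above. These settings read the clustered Spi1 peaks again and are no separate support. Spi1 held 8 of 9 peaks with 10 kb, 8 of 18 with 100 kb and 7 of 9 with the nearest start. Where at least 50% of both peaks had to overlap, both H3K27ac shares were 0%. The whole-list shares under this rule were not computed, so the 0% cannot be called particular to these genes. The median width was 150.5 bp in the LPS H3K27ac list and 353 bp in the LPS H3K4me1 list. The intervals cover counting error only.

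H3K4me1 peaks at the 7 genes were neither stronger nor much wider than elsewhere. The strongest 10% of each list held 9.71% of the LPS and 8.54% of the PBS peaks in the windows. Peaks of at least 1 kb made up 14.6% under LPS (10.4 to 20.0%), against 12.0% of the whole list, and 9.05% under PBS (5.80 to 13.8%), against 9.58%. It was the number of peaks that was high, with a median over the 7 genes of 18.5 LPS and 20.5 PBS peaks per 100 kb, against 3.25 and 2.44 over all protein-coding genes. The 7 genes were not alike in this. The share of protein-coding genes at least as dense ran from 0.26% at Csf1r to 12.5% at Spi1 and 18.8% at Maf under LPS. Under PBS it ran from 0.301% at Irf8 to 18.9% at Maf.

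**Figure D5:**
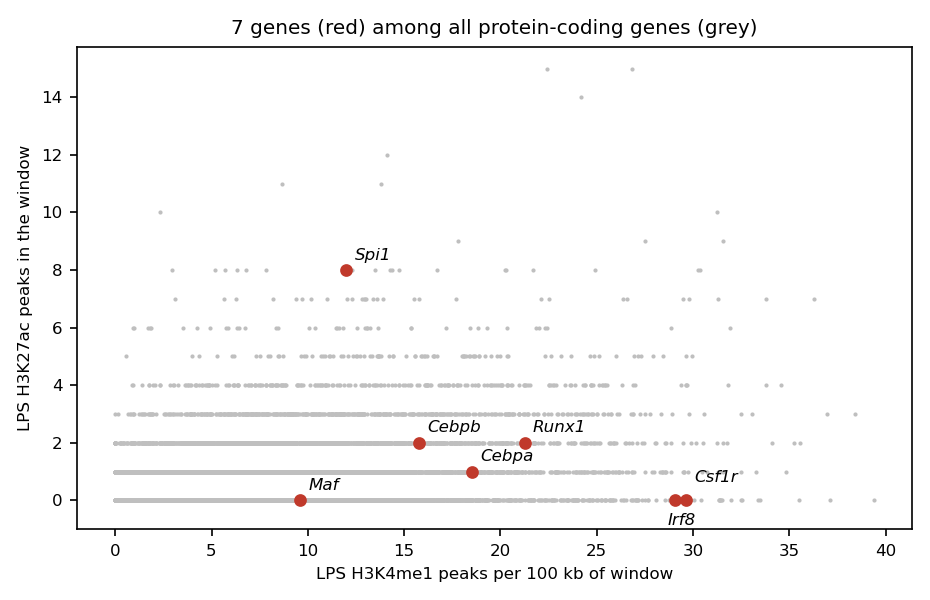
LPS H3K4me1 peaks per 100 kb of window (horizontal axis) and LPS H3K27ac peaks in the window (vertical axis), with 1 grey dot for each of 21938 protein-coding genes and the 7 genes in red. Irf8 and Csf1r lie far to the right with 0 H3K27ac peaks, and Spi1 lies high, with 8 H3K27ac peaks, and left of all the other red points but Maf.

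For comparison, 24 other factors of the myeloid lineage and 24 factors of other lineages were read the same way. Of the other myeloid factors, 10 (41.7%) held an LPS H3K27ac peak, and all 24 held LPS and 23 held PBS H3K4me1, with a median of 8.99 and 7.77 peaks per 100 kb. Those with the most H3K27ac were Zeb2, a zinc finger repressor of myeloid cells, with 6 peaks, and Elf1, an ETS factor, and Irf2, an interferon regulatory factor, with 5 each. Of the factors of other lineages, 3 (12.5%) held an LPS H3K27ac peak, among them Hnf4a, a factor of liver, and Sox2, a factor of stem and neural cells, with 1 each, and 15 held LPS and 12 PBS H3K4me1, with a median of 0.934 and 0.102 per 100 kb. No gene of either list held PBS H3K27ac. Beside these, the 4 of 7 genes were 57.1%.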

How the data were processed

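CUT&RUN peaks were analysed for the 4 libraries of H3K27ac and H3K4me1 in BMDMs treated for 1 h with LPS or PBS, and the sample labels gave the groups. The 2 IgG libraries had no list analysed here. The submitters' processing notes name Bowtie2 2.4.4, MACS2 2.2.7.1 and the builds GRCm38 and mm10. According to the methods, the authors trimmed reads, aligned them in the nf-core CUT&RUN pipeline, left out blacklisted regions and called peaks, and each list belongs to 1 library. Each deposited list gives the peak and its summit, with a score (a whole number made from the q-value, not used here), a fold enrichment, which is a ratio of fragment coverage to the local background, and the −log10 of the p-value and of the q-value at the summit. The smallest deposited −log10 q was 2.001. As these values depend on the depth and control of a library, they were used to rank or describe peaks within a list.

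Genes came from GENCODE release M21 on GRCm38, another release than the authors' VM23. The main start was the most upstream start among the APPRIS principal transcripts, limited to those with a CCDS entry where any had one. A gene without a principal transcript was given its own start. Distances were taken from the main start to the summit, with minus for upstream. An overlap of at least 1 bp counted, and shares have a 95% Wilson interval for counting error only. The lists hold no read totals, so depth is given as fragments at the summit. They were solved from fold enrichment and p, a Poisson model with a pseudocount of 1 and 1 scaling factor per library, and were whole within 0.02 for 99.9985 to 100% of peaks. Sequences were read from GRCm38 with samtools 1.23.1 and pysam 0.24.0, and tables were made with Python 3.11.15, pandas 2.3.3 and matplotlib 3.10.9. Scripts were tested on simulated data.

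The 7 genes and the comparison lists were chosen with earlier results of these data known. All 7 genes were named. The peaks named were the H3K27ac peaks (at Spi1 the rule asked for the 3 strongest and the 1 nearest the start, and the rest were added), and in each H3K4me1 list the strongest peak, the one nearest the start and the strongest without a counterpart. Not every one of these is printed. Widest peaks were added after seeing the data. Of each comparison list the 3 genes with the most LPS H3K27ac peaks were named, except 1 that is not reported here, and as most like Spi1 the 2 genes nearest in peaks per 100 kb. The alternatives were another window (10 or 100 kb), a −log10 q of at least 5, assignment by the nearest protein-coding start, an overlap of 50% of both peaks, H3K4me1 lists of equal size and merging of peaks within 1000 bp.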

Additional observations from a re-analysis of the deposited data

How the results depend on the processing

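No paired analysis was possible because each mark had 1 library under either treatment, and no result came from a test. Of the alternative values of the summary results, 41 stayed within 1.5 times the count or within the interval and 17 did not. With a −log10 q of at least 5, 109 LPS and 102 PBS H3K4me1 peaks and 6 LPS H3K27ac peaks remained at the 7 genes, 2 genes had LPS H3K27ac, and the share with a counterpart was 54.1% of LPS and 61.8% of PBS H3K4me1 peaks. With 10 kb on either side there were 130 LPS and 121 PBS H3K4me1 peaks and 2 genes with LPS H3K27ac, and assignment by the nearest protein-coding start also gave 2. Merging left 98 LPS and 103 PBS H3K4me1 and 8 LPS H3K27ac peaks. With an overlap of 50% of both peaks the shares were 33.0% of LPS and 34.2% of PBS H3K4me1 peaks, and 0% of LPS H3K27ac peaks on either H3K4me1 list. Whole-list shares were not computed under the alternatives, nor was the share of all genes with LPS H3K27ac. The ratio in H3K4me1 peak number, 1.04 as reported, was 0.915 with lists of equal size and 0.951 after merging, and 1.03 to 1.07 under the other alternatives. PBS H3K27ac was 0 at the 7 genes under every alternative run for it.

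The covered length ratio and the values per gene were added after seeing the data. The ratio over the 7 genes was 1.20 to 1.31 under the 5 alternatives. It fell below 1 at Cebpa for a −log10 q of at least 5 (0.924), for 10 kb (0.676) and for lists of equal size (0.992), at Cebpb for 10 kb (0.761) and the nearest start (0.706), and at Runx1 for lists of equal size (0.991). At Maf it was 2.44 with 10 kb, where few peaks remain. With 100 kb, LPS H3K27ac peaks numbered 6 at Cebpb and 1 at Maf. Where not explained by fewer peaks or a shorter window, the cause was not tested. With 9 fragments at the median summit, the LPS H3K27ac list can miss weak sites, so a gene without a peak is not shown to lack the mark.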
